A study of Mus musculus with 12 samples.

Results

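The genes described here are a set of cell cycle and DNA replication genes, read in adult mouse lung after hyperoxia or room air. The set lists 45 genes by name, and a gene was measured where a transcript cluster of the array carries its symbol alone; where several clusters did, the one with the highest mean over all arrays was used. In this way 44 of the 45 genes were measured, among 19938 genes with a cluster of their own and 35556 clusters in all. Ccnb1 was not analysed here. By role the 44 genes were 11 cyclins and cyclin-dependent kinases (CDKs), 9 genes of replication origin licensing, 5 genes of DNA synthesis, 3 transcription factors and 16 genes of mitosis and chromosome handling, the last including the proliferation marker Mki67.

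Male and female C57BL/6J mice, 8 to 10 weeks old, breathed room air or hyperoxia (an inspired oxygen fraction above 0.95) for 48 h, and whole lung RNA was put on Affymetrix Mouse Gene 1.0 ST arrays. Each of the 4 groups (female room air, female hyperoxia, male room air, male hyperoxia) had 3 arrays, and RNA from 4 mice was pooled for each, so the spread between arrays is that between pools. No genotype other than this inbred strain was used, and room air animals were the controls of their own sex. The values were log2 signals after robust multi-array averaging (RMA), with array medians of 8.12 to 8.20. The lung's own cells were evident from 10 alveolar type 2 cell markers, whose mean log2 level lay between 11.8 and 12.4 on every array.

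A dividing cell licenses its replication origins by loading the MCM helicase in G1. It passes from G1 to S phase under cyclin D with CDK4 or CDK6 and then cyclin E with CDK2. It copies its DNA in S phase and enters mitosis under cyclin A and cyclin B with CDK1. E2F factors drive the genes of the G1/S wave, whereas the DREAM and B-Myb complexes and FoxM1 govern many genes of the G2/M wave through CHR elements. Many promoters of the G2/M wave also hold CCAAT elements, which other factors bind. Hyperoxia is known to damage DNA in lung cells and to activate p53, which halts the cycle mainly through the CDK inhibitor p21 (Cdkn1a), and the adult lung holds few dividing cells at rest.

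Promoter sequences are shown for 4 genes of the G2/M wave that were called lower in females (Mki67, Ccnb2, Prc1 and Top2a) and for 2 genes of the MCM helicase (Mcm5 and Mcm6), so that the letters of a mitotic and of a replication promoter can be set beside the values of their genes. Each is the 200 bases from 190 before to 10 after the RefSeq transcription start, written 5′ to 3′ on the gene's strand, with coordinates of GRCm38.p6. Capitals mark each match, on either strand, to CCAAT, to the CHR word TTTGAA or to an E2F word (TTTCCCGC, TTTGGCGC, TTTCGCGC or TTTGCCGC), so a match on the other strand shows its reverse complement.
Mki67, chr7:135716370-135716569, minus strand: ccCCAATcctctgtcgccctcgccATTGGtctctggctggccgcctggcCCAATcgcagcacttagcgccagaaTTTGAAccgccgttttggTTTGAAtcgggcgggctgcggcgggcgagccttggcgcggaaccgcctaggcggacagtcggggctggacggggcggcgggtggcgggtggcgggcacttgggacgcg
Ccnb2, chr9:70421545-70421744, minus strand: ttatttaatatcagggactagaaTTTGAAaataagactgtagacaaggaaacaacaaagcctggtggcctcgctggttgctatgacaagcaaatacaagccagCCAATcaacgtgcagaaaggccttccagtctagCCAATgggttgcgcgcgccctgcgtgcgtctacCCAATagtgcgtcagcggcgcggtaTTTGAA
Prc1, chr7:80294261-80294460, plus strand: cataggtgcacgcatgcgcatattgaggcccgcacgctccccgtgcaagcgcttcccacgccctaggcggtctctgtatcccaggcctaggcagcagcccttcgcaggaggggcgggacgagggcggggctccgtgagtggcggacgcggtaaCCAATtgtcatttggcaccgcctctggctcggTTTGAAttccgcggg
Top2a, chr11:99024180-99024379, minus strand: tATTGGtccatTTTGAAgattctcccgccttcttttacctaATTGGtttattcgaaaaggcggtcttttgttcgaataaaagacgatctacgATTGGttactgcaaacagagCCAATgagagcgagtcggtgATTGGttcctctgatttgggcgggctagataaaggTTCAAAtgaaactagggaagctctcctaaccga
Mcm5, chr8:75109319-75109518, plus strand: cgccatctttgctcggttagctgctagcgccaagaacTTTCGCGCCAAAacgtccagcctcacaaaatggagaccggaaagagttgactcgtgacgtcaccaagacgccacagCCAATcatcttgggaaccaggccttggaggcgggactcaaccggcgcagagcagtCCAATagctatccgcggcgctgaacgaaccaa
Mcm6, chr1:128359696-128359895, minus strand: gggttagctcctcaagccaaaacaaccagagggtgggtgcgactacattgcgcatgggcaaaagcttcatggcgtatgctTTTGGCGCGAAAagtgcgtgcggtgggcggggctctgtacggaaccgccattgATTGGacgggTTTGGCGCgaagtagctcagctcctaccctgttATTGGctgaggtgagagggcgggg
Matches of different motifs did not overlap in these stretches, but E2F words on opposite strands did in Mcm5 and Mcm6. Over the full window of 250 bases before to 50 after the start, 35 of the 44 genes had a sequence; Ccna2, Ccnd1, Ccnd2, Ccne2, Mcm4, Foxm1, Aurkb, Kif20a and Tpx2 had no entry. TTTGAA was found in 9 of 13 mitosis genes (69.2%), in 2 of 13 licensing and DNA synthesis genes (15.4%) and in 15.2% of the windows of 15614 measured genes. An E2F word was found in none of the 13 mitosis genes, in 6 of the 13 licensing and DNA synthesis genes (46.2%) and in 3.08% of all windows. CCAAT was found in 11 of the 13 mitosis genes (84.6%), 9 of the 13 replication genes (69.2%) and 38.2% of all windows. A CCAAT on either strand, followed downstream by TTTGAA on the gene's strand, was present in 8 of the 13 mitosis genes (61.5%), against 1.81% of all windows; with both words on the gene's strand, it was 6 of 13 (46.2%) against 1.04%. A match of letters is a description of the window and is not evidence of a bound factor.

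Each sex was compared with its own room air arrays by limma, fitted over all 35556 clusters with Benjamini-Hochberg adjustment, and a gene was called where its adjusted p was under 0.05 and its fold at least 1.4 (0.485 on the log2 scale). In females 5 of the 44 genes were called lower (Ccna2, Ccnb2, Mki67, Top2a and Prc1) and 0 higher, where 2.93% of all clusters were called lower and 3.59% higher. In males 1 gene, Mki67, was called lower and 1, Ccnd1, higher, where 3.39% of clusters were called lower and 3.94% higher. On the adjusted p alone, 15 genes were lower and 2 higher in females (8.62% and 9.08% of all clusters), and 6 were lower and 3 higher in males (9.30% and 10.0%). The median log2 fold change of the 44 genes was -0.23 in females and -0.17 in males, beside -0.0192 and -0.00201 over all clusters. With the response averaged over both sexes, a comparison added after the values were seen, Ccna2 and Mki67 were called lower and none higher (3.26% and 3.86% of clusters), and on the adjusted p alone 20 genes were lower and 5 higher (14.1% and 13.8%). Most of these differences were therefore smaller than 1.4-fold.

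The hyperoxia and room air arrays did not overlap for 26 genes in females, 22 of them lower and 4 higher in hyperoxia, while 15.7% of all clusters were lower and 14.7% higher without overlap. In males 17 genes were lower and 6 higher without overlap, beside 16.7% and 16.2% of clusters. The mitosis genes made up 11 of the 22 in females and 8 of the 17 in males, and no mitosis gene was higher without overlap in either sex.

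**Figure D1:**
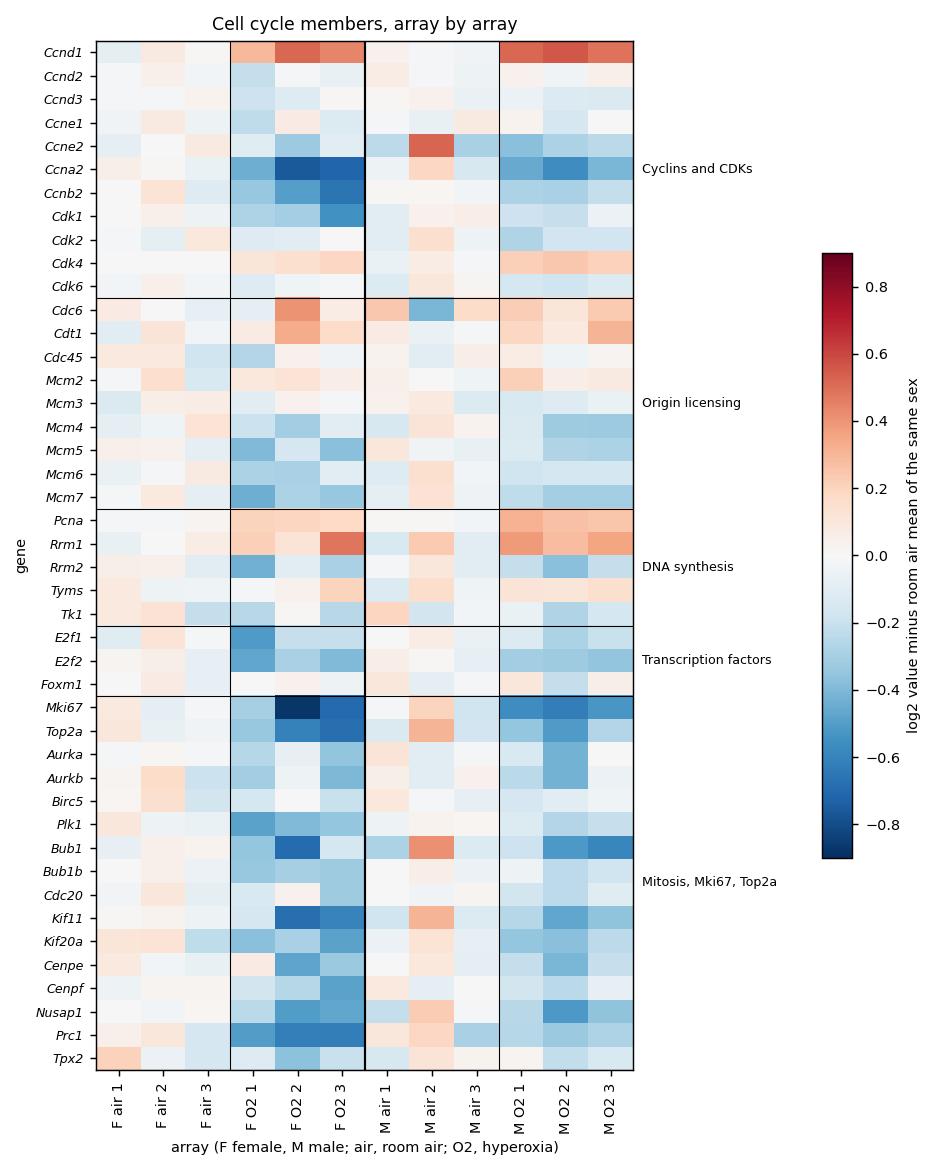
Heat map of the 44 genes (rows, by role) on the 12 arrays (columns), coloured by the log2 value minus the room air mean of the same sex, from -0.9 (blue) to 0.9 (red). The rows of the mitosis block are mostly blue in the hyperoxia columns of both sexes, while Ccnd1, Cdk4, Pcna and Rrm1 are red there.

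**Figure D2:**
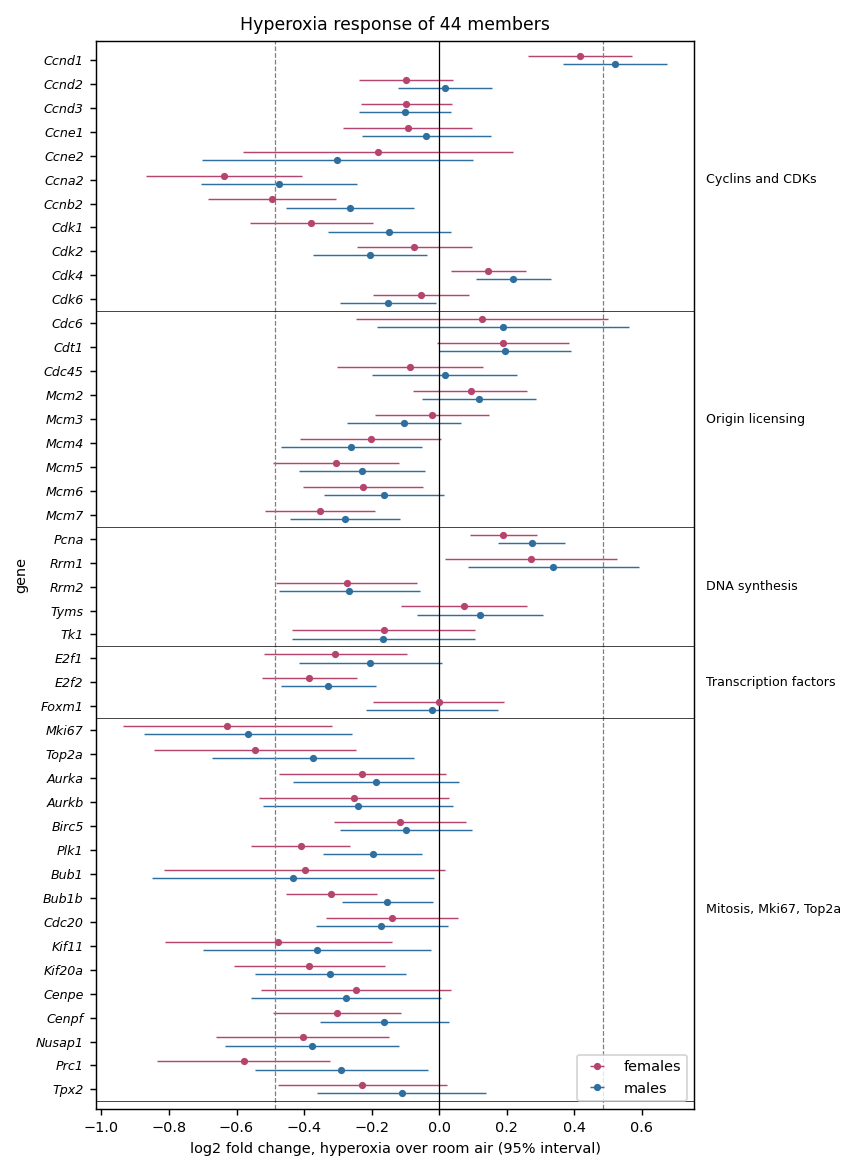
Response to hyperoxia as log2 fold change from room air, with its 95% interval, for each of the 44 genes in females and males, by role; dashed lines mark 1.4-fold in either direction. All 16 genes of the mitosis group lie below 0 in both sexes, while the licensing and DNA synthesis genes lie on both sides.

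Among the D-type cyclins and their kinases, which act in G1, Ccnd1 and Cdk4 were higher in hyperoxia and the other genes did not pass. Ccnd1, cyclin D1, read 11.58, 11.75 and 11.68 (log2) on the female room air arrays and 11.96, 12.19 and 12.12 in female hyperoxia. In males it read 11.77, 11.72 and 11.70 in room air and 12.25, 12.29 and 12.22 in hyperoxia. Every hyperoxia array was above every room air array. The log2 fold change was 0.52 ± 0.07 (SE, n = 3 arrays per group) in males, with a limma adjusted p of 0.000436, and 0.42 ± 0.07 in females, with an adjusted p of 0.00187 but a fold of 1.33, short of 1.4.

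Cdk4, the G1 kinase that cyclin D1 binds, had the highest mean of its group. It read 11.92, 11.92 and 11.93 in female room air, 12.03, 12.07 and 12.11 in female hyperoxia, 11.84, 11.97 and 11.89 in male room air, and 12.11, 12.14 and 12.11 in male hyperoxia. The arrays did not overlap in either sex, yet the difference was only 0.15 ± 0.05 (adjusted p = 0.0758, limma) in females and 0.22 ± 0.05 (adjusted p = 0.0107) in males. The other D-type cyclins, Ccnd2 and Ccnd3, and Cdk6 had log2 fold changes between -0.15 and 0.02 with no adjusted p under 0.05, as had cyclins E1 and E2 and Cdk2, between -0.30 and -0.04. Ccne2 in room air males held 1 array at 7.50 and the others at 6.74 and 6.69, so its standard error of 0.18 was the widest of the group.

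The cyclins that act from S phase to mitosis were lower. Ccna2, cyclin A2, read 8.68, 8.64 and 8.57 in female room air and 8.19, 7.87 and 7.92 in female hyperoxia, and 8.30, 8.53 and 8.20 in male room air and 7.89, 7.78 and 7.93 in male hyperoxia. In each sex all hyperoxia arrays lay below all room air arrays. The log2 fold change was -0.64 ± 0.10 for females (adjusted p = 0.0016, limma) and -0.47 ± 0.10 for males (adjusted p = 0.00832), the latter just short of the fold threshold.

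Ccnb2, cyclin B2, a partner of CDK1 in mitosis, read 9.05, 9.18 and 8.94 in female room air and 8.72, 8.56 and 8.40 in female hyperoxia. In males it read 8.80, 8.81 and 8.76 in room air and 8.50, 8.50 and 8.57 in hyperoxia. The arrays were again separate in both sexes. The female difference was -0.50 ± 0.09 (adjusted p = 0.00225, limma) and the male one -0.26 ± 0.09 (adjusted p = 0.0551). The female call lay near the fold threshold: the log2 fold change was -0.43 without female room air array 2, -0.42 without female hyperoxia array 3, -0.46 after a further quantile normalization and -0.46 with arrays centred on their medians. Cdk1 itself, the kinase of mitotic entry, differed by -0.38 ± 0.08 in females (adjusted p = 0.00869) and -0.15 ± 0.08 in males (adjusted p = 0.298).

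**Figure D3:**
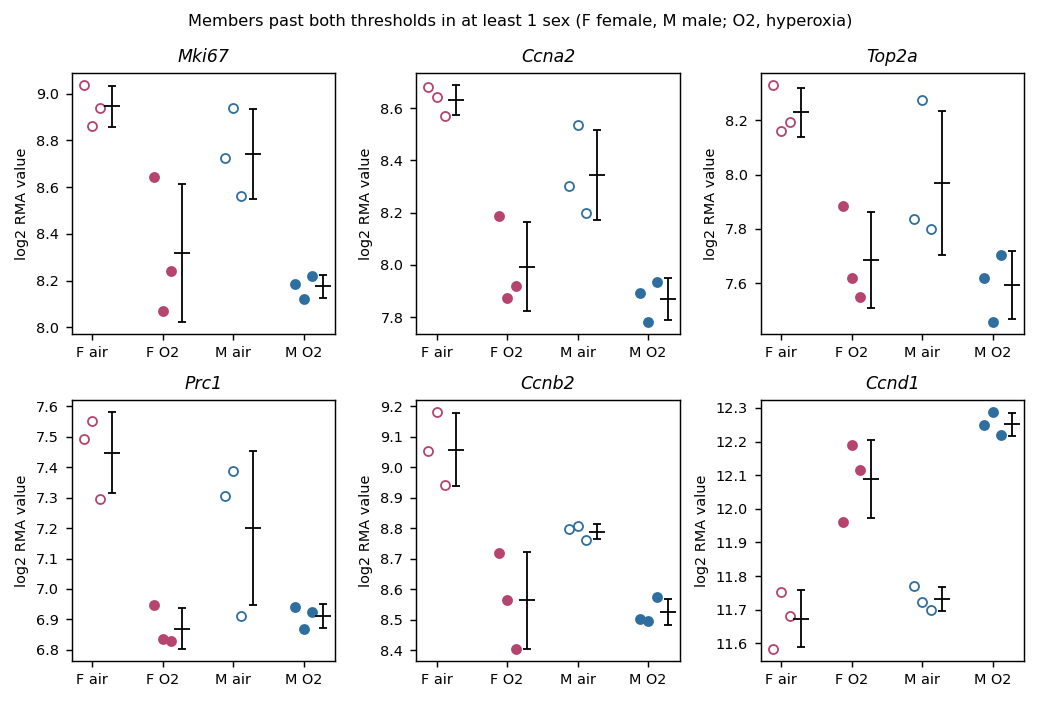
Log2 RMA values of the 6 genes past both thresholds in at least 1 sex; each point is an array (open, room air; filled, hyperoxia), and the black bars are the mean and SD of 3 arrays. Hyperoxia arrays lie below room air arrays for Mki67, Ccna2, Top2a and Ccnb2 in both sexes and for Prc1 in females, and above for Ccnd1; the first female hyperoxia array is the highest of its group in all of the lower genes.

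The licensing genes, which prepare replication origins, did not move together, and none was called in either sex. Their median log2 fold change was -0.09 in females and -0.10 in males. Mcm2, a helicase subunit and the gene with the highest mean of the group, read 8.68, 8.85 and 8.56 in female room air and 8.79, 8.82 and 8.75 in female hyperoxia, which overlapped. In males it read 8.73, 8.68 and 8.65 against 8.90, 8.74 and 8.77. The differences were 0.09 ± 0.08 and 0.12 ± 0.08, with limma adjusted p of 0.554 and 0.399.

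The other subunits of the same helicase had log2 fold changes below 0 in both sexes, but that of Mcm3 was only -0.02 in females and -0.10 in males. Mcm7 fell by 0.35 ± 0.07 in females (adjusted p = 0.00676, limma) and by 0.28 ± 0.07 in males (adjusted p = 0.0215). Mcm5 fell by 0.31 ± 0.08 in females (adjusted p = 0.0292), and its difference in males was -0.23 ± 0.08 (adjusted p = 0.0925). Averaged over both sexes, Mcm4, Mcm5, Mcm6 and Mcm7 passed on the adjusted p, with log2 fold changes between -0.32 and -0.20, while Mcm3 did not. Among the other genes of this group, Cdt1, which brings the helicase to the origin, was higher by 0.19 ± 0.06 over both sexes (adjusted p = 0.042). Cdc6 and Cdc45 had no adjusted p under 0.05.

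The DNA synthesis genes divided between higher and lower values. Pcna, the sliding clamp of DNA polymerase, also used in DNA repair, read 10.98, 10.98 and 11.01 in female room air and 11.19, 11.18 and 11.17 in female hyperoxia, and 10.90, 10.90 and 10.87 against 11.20, 11.15 and 11.14 in males. The values within each group lay close together, and all hyperoxia arrays exceeded all room air arrays. Pcna rose by 0.19 ± 0.05 in females (adjusted p = 0.0141, limma) and by 0.27 ± 0.05 in males (adjusted p = 0.00157), and a second cluster with its symbol gave 0.20 and 0.28. That cluster read nearly the same on every array (mean 11.052 against 11.055), so it is not taken as a separate measurement.

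The subunits of ribonucleotide reductase, which makes deoxynucleotides, went in opposite directions. Over both sexes the large subunit Rrm1 was higher by 0.31 ± 0.08 (adjusted p = 0.016, limma) and the small subunit Rrm2, made mainly in S phase, differed by -0.27 ± 0.07 (adjusted p = 0.0106). Neither passed within a sex. Tyms and Tk1, which supply thymidylate, had adjusted p of 0.441 or more in each sex.

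Of the transcription factors, E2f1 read 8.71, 8.94 and 8.80 in female room air and 8.31, 8.61 and 8.61 in female hyperoxia, and 8.86, 8.94 and 8.81 against 8.75, 8.58 and 8.67 in males. It fell by 0.31 ± 0.10 in females (adjusted p = 0.0493, limma), and in males the difference was -0.20 ± 0.10 (adjusted p = 0.198). E2f2, which like E2f1 activates G1/S genes, fell by 0.38 ± 0.06 in females (adjusted p = 0.00179) and by 0.33 ± 0.06 in males (adjusted p = 0.00416). Foxm1, an activator of G2/M genes, showed -0.00 ± 0.09 and -0.02 ± 0.09, with adjusted p of 0.998 and 0.951, and 95% intervals within the 1.4-fold bounds.

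The 16 genes of mitosis and chromosome handling had the lowest median of the 5 role groups in both sexes, at -0.35 in females and -0.26 in males, and all 16 had log2 fold changes below 0 in both. In females 3 were called lower, where 2.93% of all clusters were, and 8 were lower on the adjusted p (8.62% of clusters). In males 1 was called lower (3.39% of clusters) and 3 were lower on the adjusted p (9.30%), so that 1 of 16 was a share near that of all clusters. Mki67, the nuclear antigen Ki-67 that coats mitotic chromosomes, read 9.04, 8.86 and 8.94 in female room air and 8.65, 8.07 and 8.24 in female hyperoxia. In males it read 8.72, 8.94 and 8.56 in room air and 8.19, 8.12 and 8.22 in hyperoxia. No array overlapped within a sex, but the first female hyperoxia array lay above the highest male hyperoxia array and above 1 male room air array.

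Mki67 was the only gene of the 44 called in both sexes, at -0.63 ± 0.14 in females (adjusted p = 0.00977, limma) and -0.57 ± 0.14 in males (adjusted p = 0.0157). Its male call rested on individual arrays: the adjusted p was 0.0545 without male room air array 2 and 0.0591 without male hyperoxia array 2. In fold terms Mki67 in hyperoxia stood at 0.648 of its room air level in females and 0.675 in males.

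Top2a, the topoisomerase that untangles sister chromatids, read 8.33, 8.16 and 8.20 in female room air and 7.88, 7.62 and 7.55 in female hyperoxia, and 7.84, 8.27 and 7.80 against 7.62, 7.46 and 7.71 in males. The groups were separate in both sexes, although narrowly in males. The log2 fold change was -0.54 ± 0.13 in females (adjusted p = 0.0175, limma) and -0.37 ± 0.13 in males (adjusted p = 0.085). The female call was lost without female room air array 1 (adjusted p = 0.0689), female hyperoxia array 2 (0.0531) or female hyperoxia array 3 (0.0729). A second, dim cluster with the symbol Top2a alone, with a mean of 5.02, showed 0.14 ± 0.15 in females (adjusted p = 0.698), and the mean of the clusters gave -0.20.

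Prc1, which bundles the microtubules of the central spindle, read 7.49, 7.55 and 7.30 in female room air and 6.95, 6.83 and 6.83 in female hyperoxia. In males it read 7.30, 7.39 and 6.91 in room air and 6.94, 6.87 and 6.93 in hyperoxia, where 1 room air array lay among the hyperoxia arrays. It fell by 0.58 ± 0.12 in females (adjusted p = 0.00541, limma), and the male difference was -0.29 ± 0.12 (adjusted p = 0.122).

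Of the remaining mitosis genes, Plk1 (-0.41), Bub1b (-0.32), Kif20a (-0.38), Cenpf (-0.30) and Nusap1 (-0.40) passed on the adjusted p in females. Kif20a (-0.32) and Nusap1 (-0.38) did so in males as well. Plk1 encodes a mitotic kinase, Bub1b a spindle checkpoint protein, Kif20a a cytokinesis motor, Cenpf a kinetochore protein and Nusap1 a spindle microtubule binder. Bub1, another checkpoint kinase, and the spindle motor Kif11 passed only with both sexes averaged, at -0.42 ± 0.13 and -0.42 ± 0.11 (adjusted p of 0.0391 and 0.0131, limma). The kinases Aurka and Aurkb, the chromosome passenger Birc5, the APC/C activator Cdc20, the kinetochore motor Cenpe and the spindle assembly factor Tpx2 had values between -0.28 and -0.10, with no adjusted p under 0.05 within a sex or over both.

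Averaged per array, the mitosis group in hyperoxia lay 0.26, 0.38 and 0.42 below its female room air mean and 0.21, 0.37 and 0.23 below its male room air mean, so that every hyperoxia array was below every room air array of its sex. The 14 licensing and DNA synthesis genes together gave -0.14, 0.01 and -0.02 in female hyperoxia and 0.03, -0.07 and -0.01 in male hyperoxia, which overlapped with room air in both sexes. That mean near 0 averaged over genes on both sides: the 6 MCM genes taken alone gave -0.22, -0.15 and -0.14 in female hyperoxia and -0.10, -0.19 and -0.18 in male hyperoxia, all below the room air arrays of the same sex, the lowest of which stood at -0.04 in females and -0.05 in males. The difference between these groups, replication minus mitosis, was 0.13, 0.40 and 0.39 on the female hyperoxia arrays and 0.24, 0.30 and 0.22 on the male ones, against -0.09 to 0.05 on the 6 room air arrays. The groups also differed in signal level. In room air the mean log2 level of the mitosis genes was 7.777 in females and 7.655 in males, below the array medians of 8.12 to 8.20. That of the licensing and DNA synthesis genes was 8.546 and 8.522. The part of signal level in the difference between the groups was not tested. The values above describe groups whose makeup was chosen with earlier results known, and no test was made of them.

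**Figure D4:**
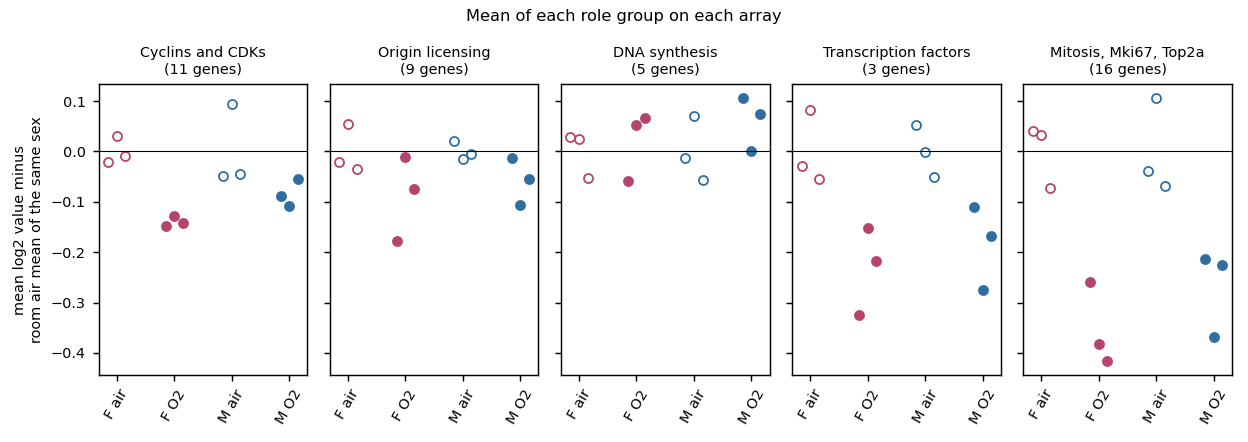
Mean log2 value of each role group on each array, minus the room air mean of the same sex (open, room air; filled, hyperoxia; 3 arrays per group). The mitosis group lies between 0.21 and 0.42 below the room air mean in hyperoxia, and the DNA synthesis group scatters around 0.

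The sexes were compared through the interaction, the male response minus the female one, for which 0 of the 35556 clusters (0%) and 0 of the 44 genes passed in limma. At an unadjusted p under 0.05 there were 516 clusters and 1 of the 44 genes, Plk1, whose log2 fold change was -0.41 in females and -0.20 in males (difference 0.21, 95% interval 0.01 to 0.42, limma adjusted p = 1). The widest difference was that of Prc1, at 0.29 (95% interval -0.07 to 0.65). For Mki67 it was 0.06 (95% interval -0.38 to 0.50). The larger number of genes called in females was thus not shown to be a difference between the sexes, and the intervals were too wide to show likeness either.

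Males and females differed in 0 of the 44 genes in room air and in 0 in hyperoxia, where 0.0141% and 0.0169% of clusters were called. At an unadjusted limma p under 0.05 there were 869 of the 35556 clusters in room air and 1160 in hyperoxia. Of the 44 genes, 2 were among them in room air, Ccna2 (males minus females, -0.29 ± 0.10) and Ccnb2 (-0.27 ± 0.09), and 1 in hyperoxia, Ccnd1 (0.16 ± 0.07). The limma adjusted p of these was 1, 1 and 0.945. The female means of Ccna2 and Ccnb2 in room air were 8.63 and 9.06, and the male means 8.34 and 8.79.

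The other genes of the pathway, from lists that were also chosen with earlier results known, are given by their counts, to be read against the share of all clusters called higher (3.59% in females, 3.94% in males) and called lower (2.93% and 3.39%). Of 23 measured p53 target genes, 13 were called higher in females and 16 in males, 0 were called lower in either sex, and the medians were 0.88 and 0.89. Eda2r, a cell surface receptor, rose by 1.84 ± 0.13 and 2.08 ± 0.13 in females and males. Gadd45a, a DNA damage and growth arrest gene, rose by 1.99 ± 0.07 and 1.82 ± 0.07. Tnfrsf10b, the TRAIL receptor, rose by 1.75 ± 0.07 and 1.82 ± 0.07, and Plk3, a stress kinase, by 1.60 ± 0.09 and 1.68 ± 0.09. The limma adjusted p of Eda2r, Gadd45a, Tnfrsf10b and Plk3 was 8.56e-06 or less. Trp53 was not analysed here. Cdkn1a was covered only by a cluster that also carries the symbol 4930567H12Rik and so was kept out of the counts: that cluster read 11.32, 11.03 and 11.33 in female room air against 12.96, 12.95 and 13.06 in hyperoxia, and 10.97, 10.98 and 10.93 against 13.00, 13.00 and 12.98 in males. Its log2 fold changes were 1.76 ± 0.08 and 2.03 ± 0.08, and which of its genes carried the signal cannot be told apart.

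Among 7 CDK inhibitors with a cluster of their own, Cdkn1b (p27) and Cdkn2c (p18) were called lower in both sexes, by 0.54 ± 0.09 and 0.61 ± 0.12 in females and 0.61 ± 0.09 and 0.69 ± 0.12 in males. Cdkn2b (p15) was called higher in males, at 0.74 ± 0.12 (adjusted p = 0.00114, limma), and was at 0.42 ± 0.12 in females. Of 16 Rb and E2F regulators, Rbl1 (p107) was called lower in both sexes (-0.50 ± 0.13 and -0.58 ± 0.13) and Rbl2 (p130) in males (-0.54 ± 0.08), with 0 called higher, against the same shares of clusters.

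Of 17 checkpoint kinases and phosphatases, only Wee1, which holds CDK1 inactive, was called, higher by 1.51 ± 0.11 in females and 1.72 ± 0.11 in males (adjusted p of 9.74e-06 and 3.91e-06, limma). In the list of growth arrest and early growth genes, 9 of 19 were called higher in females and 7 in males, and 1 was called lower in each sex. Gadd45a, Btg2 and Ccng1 belong both to this list and to the p53 targets, so they are counted in both. Myc, a growth factor response gene, rose by 2.32 ± 0.10 and 2.44 ± 0.10, and Gadd45g by 1.74 ± 0.09 and 2.04 ± 0.09. The immediate early gene Fos rose by 1.57 ± 0.11 and 1.25 ± 0.11. Of 22 other cyclins and CDKs, Cdk18 was called higher (0.74 and 0.78) and Cdk19 lower (-0.63 and -0.88), in both sexes.

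Further genes of replication and of mitosis are given the same way. Of 39 further replication genes, only Orc2, a subunit of the origin recognition complex, was called, higher in both sexes (0.54 ± 0.14 and 0.49 ± 0.14), and the medians were -0.03 and -0.03; 1 of 39 is a share below the 3.59% and 3.94% of all clusters called higher. Of 51 further mitosis genes, 44 lay below 0 in females and 42 in males, with medians of -0.20 and -0.10. Cenpa, the centromeric histone (-0.53 ± 0.10), Ncapd2, a condensin subunit (-0.49 ± 0.07), and Ect2, which starts cytokinesis (-0.50 ± 0.12), were called lower in females, and 0 in males, where 2.93% and 3.39% of all clusters were called lower. Few genes of either list passed both thresholds, but the lists differed on the adjusted p alone. Of the 51 further mitosis genes, 13 (25.5%) were lower in females and 7 (13.7%) in males, and 0 were higher. Of the 39 further replication genes, 2 (5.1%) and 1 (2.6%) were lower, and 1 and 2 higher. Over all clusters, 8.62% and 9.30% were lower and 9.08% and 10.0% higher.

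**Figure D5:**
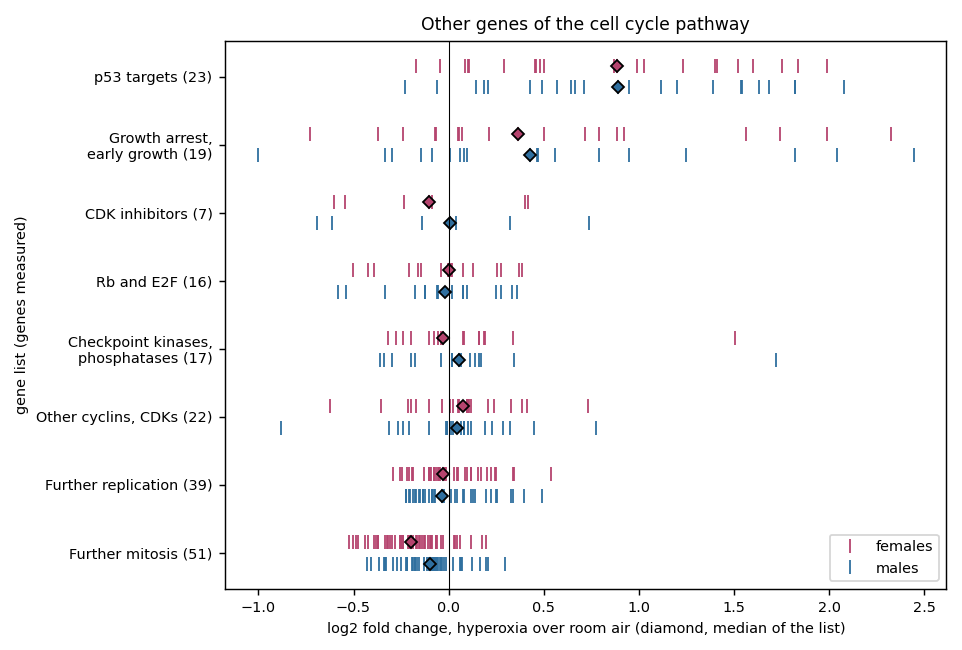
Log2 fold changes in hyperoxia, relative to room air, for the other pathway genes (ticks, 1 gene each; diamonds, list medians) in females and males. The medians of the p53 targets lie at 0.88 and 0.89, and those of the further mitosis genes at -0.20 and -0.10.

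Markers of several cell types moved with hyperoxia in the same arrays, and in whole lung fewer cells of a type and less RNA per cell cannot be told apart. Of all clusters, 2.93% were called lower in females and 3.39% in males, which are the shares to set beside the counts of markers. The mean log2 level of 6 B cell markers ran from 9.15 to 9.42 in female room air, 8.83 to 9.16 in female hyperoxia, 9.02 to 9.41 in male room air and 8.68 to 8.82 in male hyperoxia, with 0 of 6 called lower in females and 2 in males. That of 6 T cell markers ran from 8.29 to 8.57, 8.11 to 8.32, 8.25 to 8.35 and 7.95 to 8.15 in the same order, with 0 and 2 called lower. Of 10 neutrophil markers, 0 were called in females and 5 were lower in males, and the list mean ran from 8.22 to 8.94 in female room air, from 8.08 to 8.47 in female hyperoxia, from 8.45 to 9.13 in male room air and from 7.94 to 8.10 in male hyperoxia. Among 9 thymocyte markers, 1 (Cd1d1) was called lower in each sex, and among 8 erythroid precursor markers, 2 (Alas2 and Slc4a1) in females and 0 in males.

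Of 12 endothelial markers, 5 were called lower in each sex, with list means of 11.75 to 11.87 and 11.81 to 11.96 in room air and 11.15 to 11.23 and 11.23 to 11.25 in hyperoxia. Of 10 alveolar type 2 markers, 6 were called lower in females and 4 in males. Not all lists fell: of 8 macrophage and monocyte markers, 3 were called higher and 1 lower in females, and 2 and 2 in males. For 8 alveolar type 1 markers, 1 was called higher and 1 lower in each sex. Called lower in each sex were 2 of 6 club and ciliated cell markers and 1 of 8 fibroblast markers, with 0 higher. Over all clusters, 3.59% were called higher in females and 3.94% in males. The part of these cell types in the values of the cell cycle genes was not tested.

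Squamous epithelium genes varied widely between pools of 1 group: the mean of 18 such genes ran from 7.66 to 10.0 in female room air, 8.16 to 10.4 in female hyperoxia, 7.38 to 8.76 in male room air and 7.50 to 8.91 in male hyperoxia, and 0 of the 18 passed in either sex. Without the 3 pools richest in them (female room air 1 and 3 and female hyperoxia 1), the female contrast rested on 1 room air array, whose spread limma then takes to be that of the other groups. In that fit the log2 fold changes of all 5 genes called in females were at least as far below 0 (Prc1 -0.72, Top2a -0.58), 3 were called, and Prc1 and Top2a had adjusted p of 0.0709 and 0.187; with so few arrays, the loss of these calls is not evidence of smaller differences. The first female hyperoxia array, the richest in squamous genes, was the highest of its group for 8 of the 16 mitosis genes, Mki67 and Top2a among them, and the lowest for 2, Plk1 and Bub1b. Over all 44 genes it was the highest for 12 and the lowest for 20, the latter including E2f1, E2f2, Mcm5 and Mcm7. The part of squamous tissue in these values was not tested beyond the fits named here.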

How the data were processed

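The deposited table held log2 expression values, made by the authors from 12 Affymetrix Mouse Gene 1.0 ST arrays by RMA (background correction, quantile normalization and summary of probes into transcript clusters) in R with oligo, one array per RNA pool. RMA values carry no read depth; the number of arrays (3 per group) limits precision, and low signals understate fold changes. The lists here and their members were chosen with earlier results of these data known. Symbols came from the platform annotation: 21789 clusters carried 1 symbol, 1621 several and 12146 none listed. All 35556 clusters were fitted with limma (3.58.1, R 4.3.3) on group means of all 12 arrays with empirical Bayes moderation and no low-signal filter; p-values were adjusted by Benjamini-Hochberg within each contrast. The fit was tested on simulated data. Genes named with values on every array were those called in at least 1 sex and the highest-mean gene of each role; in other lists, at most the 4 called genes of largest change, plus Cdkn1a, were named, and marker genes of small counts were named after their values were seen. Each array is a pool of 4 mice, so p-values measure the spread between pools. Replicate numbers come from the sample titles, with no shared day or litter stated. Deviations of same-number arrays correlated above 0.1 in 3 of 3 pairs of the female groups (0.28 to 0.70) and in 2 of 3 of the male groups (-0.17 to 0.33). Over all groups they did so in 6 of 18 (-0.71 to 0.70). The fit behind the reported values did not pair arrays by number. Replicate numbers entered only as a block in alternatives, over all arrays and over the female arrays alone. Promoter windows came from RefSeq (GRCm38.p6) and were searched on both strands. Alternatives covered normalization, weights, filters, thresholds, cluster choice, blocking, squamous gene content and each array left out.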

Additional observations from a re-analysis of the deposited data

How the results depend on the processing

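Among the results that have a direction, none reversed it under any alternative tried. These were the log2 fold changes of the called genes and the replication minus mitosis medians. The counts have no direction and could not reverse. Of 315 counts recomputed, 247 equalled the reported one, 32 changed by at most 1.5 times and 36 by more, and of 208 values of the called genes, 179 kept their call and 29 lost it. The thresholds mattered most. Without a fold threshold, 3065 of all 35556 clusters were lower in females and 3308 in males. At a fold of at least 2 these counts were 166 and 194, and with limma treat at 1.4 they were 196 and 243. Higher clusters numbered 3228 and 3556, 210 and 237, and 318 and 356 in the same order. Over both sexes, 5022, 176 and 341 were lower and 4891, 227 and 511 higher. At an adjusted p under 0.01, 1017 were lower in males. In females 5 genes were called lower, 15 without a fold threshold, 0 at a fold of at least 2 and 0 with limma treat at 1.4, and the higher count went from 0 to 2 without a fold threshold. In males the 1 lower call became 6, 0 and 0 under the same settings and 0 at an adjusted p under 0.01, and the 1 higher call became 3, 0 and 0, and 0 after a further quantile normalization, where Ccnd1 stood at 0.48, under the fold threshold. Averaged over both sexes, 2 lower calls became 20, 0 and 0, and 0 higher calls became 5 without a fold threshold and 1 with arrays centred on their medians. Of all clusters, 1370 were higher in males after the further normalization, and 1571 over both sexes with arrays centred on their medians. Array weights, in a fit that stopped before converging, gave 8 lower calls in females, 2 in males and 4 over both, with 1 higher over both. Over all clusters that fit gave 1430 lower in females, 1075 in males and 1137 over both, with 1605 higher over both. Without the 3 pools richest in squamous genes, which leaves 1 female room air array, the lower counts were 3 in females and 4 over both. At a fold of at least 2, 10 of the 23 p53 targets were higher in males, where 237 of all 35556 clusters were.

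Leaving out each array in turn gave 3 to 7 lower calls in females (3 without female hyperoxia array 3). In males it gave 0 to 2 (0 without male room air 2 or male hyperoxia 2, and 2 without any other male array). Over both it gave 2 to 4 lower (4 without male room air 1 or 3 or female hyperoxia 1). It also gave 0 to 1 higher over both (1 without female room air 2 or female hyperoxia 1). In these fits 997 to 1073 of all clusters were lower in females and 1040 to 1457 in males. Over both, 1067 to 1327 were lower and 1293 to 1487 higher. The median of replication genes minus that of mitosis genes, 0.30 in females and 0.22 in males, ran from 0.24 to 0.39 and from 0.16 to 0.25 over all alternatives. With the replicate number as a block over all arrays, the counts were 5 lower and 0 higher in females and 1 and 1 in males, and 1 of 12 arrays correlated best with its own number over all groups. With the female arrays fitted alone with that block (added after seeing the data), the same 5 genes were lower and 0 higher. The p53 targets called higher went from 13 to 14 in that fit, where 1098 of all clusters were lower and 1342 higher. With the block over all arrays, 1007 clusters were lower and 1229 higher in females, and 1145 and 1355 in males. Pairing of the female arrays was inferred from their correlations alone and is not stated by the labels. The causes of these movements were not tested, beyond what a stricter or looser threshold or fewer arrays do by construction. Mean signals of 22 of the 44 genes lay below the lowest array median, where background can limit what RMA shows. The median is not itself a measured background.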
